A study of Mus musculus with 8 samples.

Results

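The fibroblast growth factor (FGF) receptors and ligands examined here are the receptor genes Fgfr1, Fgfr2, Fgfr3 and Fgfr4 and the ligand genes Fgf1, Fgf2, Fgf7, Fgf10, Fgf18 and Fgf21, 10 of the 23284 genes counted in each library. They were chosen by symbol, with no measured value in the rule. All libraries came from ID8 IP2, a mouse ovarian surface epithelial tumor line that had been made to express luciferase and mCherry from a lentivirus. Notch3IC lines were infected with a pCCL lentivirus carrying the HA-tagged intracellular domain of Notch3 and an IRES-GFP, which signals constitutively without ligand, and Control lines received the empty pCCL vector. Each of Sets 1 to 4 is an independent infection with 1 Control and 1 Notch3IC line, which gives 4 libraries per group. The study's methods state that every ID8 IP2 line was probably positive for mycoplasma for the whole of the work, as judged by tests made afterwards. Total counts were 19013578 to 28208072 in Control and 15524262 to 27107061 in Notch3IC.

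FGFs are secreted proteins that bind receptor tyrosine kinases together with heparan sulfate. Bound receptors dimerize and signal through the FRS2 adaptor to the RAS and MAP kinase cascade and through phospholipase C gamma, while Sprouty and Spred proteins restrain the cascade. FGF18 belongs to the FGF8 subfamily, FGF7 and FGF10 signal mainly through the epithelial splice form of FGFR2, and FGF21 is an endocrine ligand that needs the co-receptor beta-klotho.

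Levels are given as CPM, counts scaled to the TMM-normalized library size, and between genes as CPM per kilobase of exon of protein-coding transcripts (CPM/kb). Notch3IC was compared with Control by edgeR's quasi-likelihood test with condition as the only term over 12430 genes. Genes were called where the Benjamini-Hochberg adjusted p was under 0.1 and the log2 fold change was 1 or more in either direction. Notch3 counts, which do not separate the transgene from the endogenous gene, followed the labels. Notch3 had 34 to 74 counts in Control, and 3864 counts in Notch3IC Set 1, 319 in Set 2, 10026 in Set 3 and 6915 in Set 4 (log2 fold change 6.69, edgeR adjusted p = 0.0169). The Notch targets Hey1 and Nrarp rose with log2 fold changes of 7.35 and 7.34 (edgeR, adjusted p = 0.0169 for each), and Heyl, with at most 2 counts in a Control library, reached 147 to 7460 counts in Notch3IC. Set 2 had the lowest level of all 4 genes among the Notch3IC libraries. All 13 markers of ovarian surface epithelium and mesothelium had counts, and Upk3b was the most abundant by CPM. Krt7 of this list had only 5, 2, 46 and 7 counts in Control and 1, 1, 2 and 2 in Notch3IC and was not tested. The leukocyte markers Ptprc, Cd3e, Cd4, Cd8a, Adgre1 and Itgam had at most 3 counts in every library, as did the endothelial markers Cdh5, Tek, Tie1 and Emcn. Others of these lists had more. Cd68 had 31 to 150 counts, Csf1r 7 to 36, Pecam1 9 to 30 and Kdr 4 to 22. Lyz2 had 0 to 3 counts in Control and 2 to 11 in Notch3IC, and Vwf 0 to 1 and 0 to 6.

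Fgfr1, Fgfr2 and Fgf18 were the abundant members in the Control lines. Fgfr2 averaged 12.4 ± 6.36 CPM/kb (SD, n = 4), Fgfr1 11.4 ± 2.21 and Fgf18 10.6 ± 4.58, and these neighbours do not differ beyond their spread. With the exons of all transcripts as the length, Fgf18 came first at 10.6 CPM/kb, before Fgfr1 at 6.40 and Fgfr2 at 6.26. Fgfr3 followed at 2.15 ± 0.747 CPM/kb. Fgf2 was lower again at 0.126 ± 0.113 CPM/kb, and Fgf21, Fgf7, Fgf10, Fgf1 and Fgfr4 lay at 0.0846 CPM/kb or below. In Notch3IC the order at the top was Fgfr1 with 20.4 ± 4.08 CPM/kb, Fgfr2 with 12.3 ± 5.92, Fgf18 with 3.94 ± 2.45 and Fgfr3 with 3.19 ± 1.40. Fgf18 and Fgfr3 lay within their spread of each other there.

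None of the 10 members was called. 5 of them passed the filter on low counts (Fgfr1, Fgfr2, Fgfr3, Fgf2 and Fgf18). Of these 5, 2 had an unadjusted p under 0.05 in the edgeR test, as did 2289 of all 12430 genes tested. Calls took 3.4% of all genes tested in the higher direction, 0.74% in the lower and 4.14% in either, so 0 of 5 is near the background. Without the fold limit 1 of the 5 passed, Fgfr1, where 5% of genes tested passed higher, 1.69% lower and 6.69% either way. The median log2 fold change was 0.57 over the 5 members and -0.01 over all genes tested. With the set as a block in the same edgeR test, which compares lines of 1 infection with each other, Fgf2 rose and Fgf18 fell, 2 of 5 members against 7.72% of genes called in either direction. Without the fold limit, Fgfr1, Fgfr3 and Fgf2 passed higher and Fgf18 lower in the blocked test, against 14.9% of genes higher, 12.1% lower and 27.1% either way. Leaving out Set 1 or Set 3 ended that pass for Fgfr1 (blocked edgeR adjusted p = 0.126 and 0.132), and leaving out Set 1, 3 or 4 ended it for Fgfr3 (0.273, 0.347 and 0.223). DESeq2 called Fgf18 alone of the members (adjusted p = 0.0949), where it called 1.37% of genes with an adjusted p lower. In these bulk libraries, fewer cells expressing a gene and less RNA per cell cannot be told apart.

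Fgfr1, the receptor that carries FGF signals in mesenchymal and many epithelial cells, had 80.0, 62.5, 59.5 and 50.7 CPM in Control Sets 1 to 4 in turn and 138, 86.8, 103 and 125 CPM in the Notch3IC libraries. Every Notch3IC library was above every Control library, a separation that 7.08% of genes tested showed in that direction. The log2 fold change was 0.84 (standard error 0.18, edgeR adjusted p = 0.0463), past the p threshold and below the fold limit. With the block the log2 fold change was again 0.84 (standard error 0.13, adjusted p = 0.0277). Within sets the log2 ratio was 0.78, 0.47, 0.79 and 1.31, lowest in Set 2. The adjusted p was 0.305 without Set 3 and 0.399 without Set 4, and 0.107 to 0.147 without any single library of these sets.

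Fgfr2, the receptor whose epithelial form binds FGF7 and FGF10, had 34.8, 112, 55.3 and 56.3 CPM in Control and 29.0, 104, 59.4 and 64.4 in Notch3IC. On GRCm38, 3.04% of its exon bases overlap Ctbp2 on the same strand. The groups overlapped throughout, and both lines of Set 2 were high and both lines of Set 1 low. The log2 fold change was -0.01 (standard error 0.43, edgeR adjusted p = 0.995), and -0.02 (standard error 0.09, adjusted p = 0.907) with the block. The level of Fgfr2 differed far more between infections than between the conditions within one, where the log2 ratio ran from -0.27 to 0.19.

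Fgfr3, whose signal slows growth in cartilage and drives it in urothelium, had 5.95, 8.13, 12.8 and 12.8 CPM in Control and 11.8, 8.10, 23.2 and 15.8 in Notch3IC. The groups overlapped, and the lines of Set 2 had the same level. Its log2 fold change was 0.57 (standard error 0.36, edgeR adjusted p = 0.455), and 0.54 (standard error 0.19, adjusted p = 0.0981) with the block, below the fold limit. On GRCm38, 13.9% of the exon bases of Fgfr3 overlap a gene on the opposite strand, whose reads cannot be told apart without strand information. Fgfr4, the liver receptor, had 0, 0, 1 and 1 counts in Control and 0, 0, 2 and 5 in Notch3IC and was not tested.

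**Figure D1:**
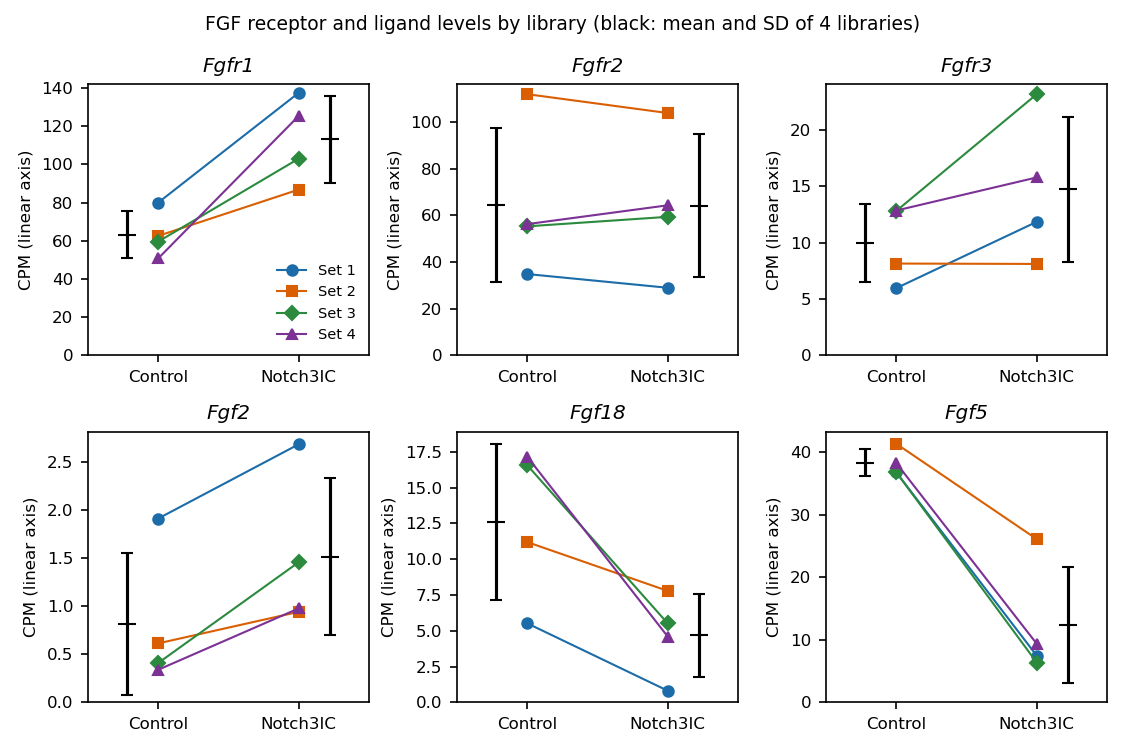
Level in CPM (linear axes that start at 0) of 5 members and Fgf5 in the Control and the Notch3IC library of each set, with lines joining the libraries of a set and black bars for the mean and SD of 4 libraries. All Notch3IC libraries lie above all Control libraries for Fgfr1 and below them for Fgf5, while Fgf18 is lower at the Notch3IC end of each line with groups that overlap.

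Taken per length, the receptor mixture held more Fgfr1 in the Notch3IC line of every set. Fgfr1 made up 64.4, 32.6, 44.4 and 40.2% of the summed receptor CPM/kb in Control and 75.3, 41.9, 53.0 and 58.8% in Notch3IC. The groups overlapped, since Control Set 1 was above 3 of the 4 Notch3IC libraries. The summed level of the 4 receptors was 22.4, 34.5, 24.1 and 22.7 CPM/kb in Control and 32.9, 37.3, 35.0 and 38.4 in Notch3IC, and Fgfr2 held the largest share in both lines of Set 2 (62.3 and 53.5%) and in Control Set 4 (47.5%). In Control Set 3 it held 44.0%, beside 44.4% for Fgfr1. No test was made on these sums.

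**Figure D2:**
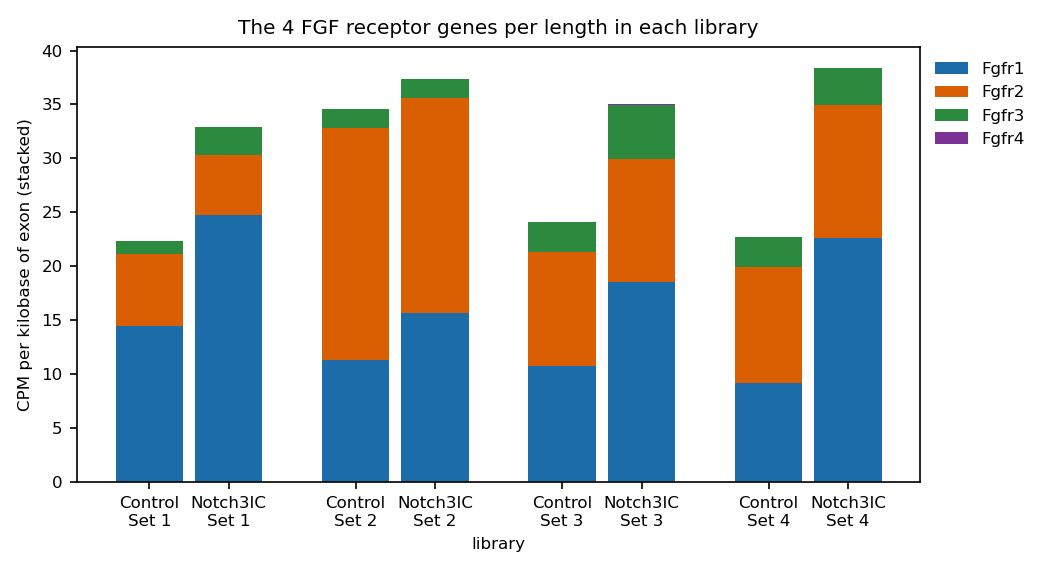
Stacked CPM per kilobase of exon of Fgfr1, Fgfr2, Fgfr3 and Fgfr4 in each of the 8 libraries, ordered by set. The Fgfr1 segment is taller in the Notch3IC library of each set, and the Fgfr2 segment is tallest in the libraries of Set 2.

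Among the ligands, Fgf18, which acts in cartilage, bone and lung development, had 5.52, 11.2, 16.6 and 17.2 CPM in Control and 0.815, 7.79, 5.52 and 4.60 in Notch3IC. It was lower in the Notch3IC line of every set, while the groups overlapped through the low Control library of Set 1. The within-set log2 ratio was -2.72, -0.52, -1.58 and -1.90, and 19.3% of genes tested were lower in all 4 sets. The log2 fold change was -1.44 (standard error 0.60, edgeR adjusted p = 0.245), and -1.60 (standard error 0.33, adjusted p = 0.0388) with the block. With condition alone and without Set 1, Fgf18 passed both limits (log2 fold change -1.35, edgeR adjusted p = 0.0685). The blocked adjusted p was 0.00233 without Set 2, and 0.131, 0.165 and 0.182 without Sets 1, 3 and 4.

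Fgf2, a ligand without a signal peptide that binds heparan sulfate tightly, had 45, 12, 10 and 10 counts in Control and 56, 15, 37 and 27 in Notch3IC. In CPM these were 1.91, 0.614, 0.410 and 0.340 against 2.68, 0.942, 1.46 and 0.977. It was higher in the Notch3IC line of every set, as were 21.1% of genes tested, and the groups overlapped because both lines of Set 1 were high. The log2 fold change was 0.89 (standard error 0.61, edgeR adjusted p = 0.496), and 1.04 (standard error 0.31, adjusted p = 0.0719) with the block. With condition alone the log2 fold change was 1.75 (edgeR adjusted p = 0.0977) without the Control library of Set 1 and 0.49 (adjusted p = 0.678) without its Notch3IC library. The blocked adjusted p was 0.138, 0.261 and 0.255 without Sets 1, 3 and 4. The opposite-strand gene Nudt6 overlaps 9.44% of the exon bases of Fgf2, and its own log2 fold change was -0.24 (edgeR adjusted p = 0.514).

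The other ligands had few counts and were removed by the filter. Fgf1, an acidic FGF that binds every receptor, had 0, 3, 0 and 2 counts in Control and 5, 1, 3 and 8 in Notch3IC. Fgf7 had 6, 3, 2 and 3 against 2, 2, 0 and 6 counts, Fgf10 had 0, 2, 3 and 2 against 0 in each Notch3IC library, and Fgf21 had 1, 2, 1 and 4 against 0, 2, 2 and 4. A count of 0 allows up to 3 counts in a library, a range that holds every Control count of Fgf10. Fitted without the filter, Fgf10 had the lowest edgeR adjusted p of these 4 ligands and Fgfr4 (0.244, unadjusted p = 0.0295), and the other adjusted p values were 0.415 for Fgf1, 0.843 for Fgf7, 0.978 for Fgf21 and 0.569 for Fgfr4.

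Outside the 10 members, Fgf5, the ligand that ends the growth phase of hair follicles, was the most abundant FGF gene per length in Control and the only FGF gene called by the test with condition alone. Control libraries had 36.8, 41.4, 36.8 and 38.3 CPM and Notch3IC libraries 7.48, 26.1, 6.38 and 9.38. All Notch3IC libraries were below all Control libraries, as for 3.75% of genes tested, and that of Set 2 was nearest to them. Fgf5 fell with a log2 fold change of -1.65 (standard error 0.42, edgeR adjusted p = 0.075), and -1.87 (standard error 0.33, adjusted p = 0.0314) with the block. With condition alone the adjusted p was 0.149, 0.376 and 0.519 without Sets 1, 3 and 4 and 0.00209 without Set 2, and with the block it was 0.131, 0.144, 0.166 and 0.00022 in the same order. With condition alone it also lay above 0.1 without the single library Notch3IC 1, Control 2, Control 3, Notch3IC 3, Control 4 or Notch3IC 4. The 6 ligands and Fgf5 summed to 19.8, 26.3, 28.9 and 30.0 CPM/kb in Control and 4.16, 17.3, 7.53 and 8.05 in Notch3IC.

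The 250 bases before the annotated start are shown for Fgf18 and Fgf5, the abundant ligands with lower levels in every set, and for Fgfr2, an abundant receptor with a level that differed by infection. The sequences are from a table of RefSeq promoters (GRCm38.p6) in which 8 of the 10 members were matched. The promoters of Fgfr1 and Fgf1 were not analysed here. Both strands were searched for TGGGAA, the core bound by the Notch cofactor RBPJ, for the E-box CACGTG and for the HEY-type site CACGCG. Capitals mark a match.
Fgf18: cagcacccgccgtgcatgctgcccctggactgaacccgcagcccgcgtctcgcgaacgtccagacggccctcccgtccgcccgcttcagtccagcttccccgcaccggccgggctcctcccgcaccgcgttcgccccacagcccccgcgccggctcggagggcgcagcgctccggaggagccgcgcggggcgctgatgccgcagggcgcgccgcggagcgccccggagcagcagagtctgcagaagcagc
Fgf5: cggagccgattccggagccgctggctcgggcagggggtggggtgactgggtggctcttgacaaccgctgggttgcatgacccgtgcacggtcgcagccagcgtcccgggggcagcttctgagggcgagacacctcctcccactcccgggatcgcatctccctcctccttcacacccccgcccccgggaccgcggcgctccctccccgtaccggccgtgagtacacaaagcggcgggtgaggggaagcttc
Fgfr2: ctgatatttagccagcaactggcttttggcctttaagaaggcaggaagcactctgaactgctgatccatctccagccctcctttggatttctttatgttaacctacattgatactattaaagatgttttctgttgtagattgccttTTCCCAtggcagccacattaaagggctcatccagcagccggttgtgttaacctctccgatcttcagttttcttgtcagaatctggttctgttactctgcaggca
They lie at chr11:33147401-33147650 (minus strand), chr5:98253934-98254183 (plus strand) and chr7:130266809-130267058 (minus strand), each printed 5′ to 3′ on the strand of the gene. G and C make up 77.2% of the Fgf18 window, 70.8% of that of Fgf5 and 44% of that of Fgfr2. Fgfr2 held TTCCCA, the reverse complement of the RBPJ core, 104 bases before the start, and neither Fgf18 nor Fgf5 held any of these letters. Fgf7 and Fgf10 held the RBPJ core and Fgf21 held CACGTG and CACGCG without overlap between them. Of 32851 mouse promoter windows of this length 21.6% hold the RBPJ core, 6.02% CACGTG and 7.62% CACGCG, and a match is a description of letters.

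The rest of the pathway was followed in 74 listed genes, of which 52 were tested and 11 had no count. Etv1 rose and Fgf5 fell, 1 gene in each direction, where 3.4% of all genes tested were called higher and 0.74% lower. The median log2 fold change of the 52 was 0.06, beside -0.01 for all genes tested. With the block Fgf11, Il17rd and Etv1 rose and Fgf5, Fgf13 and Hs3st1 fell, against 5.19% of genes called higher and 2.53% lower.

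In the feedback and target genes (15 of 16 tested), Etv1, a transcription factor of the PEA3 group, had 5, 0, 2 and 0 counts in Control and 13, 7, 14 and 38 in Notch3IC. The groups did not overlap, at low counts in both, where 7.08% of genes tested lay higher without overlap. The fitted log2 fold change was 3.29 (standard error 0.83, edgeR adjusted p = 0.0719), a value that depends on the prior count, and the adjusted p was above 0.1 without any single library of Sets 3 or 4, without Notch3IC 1 and without Control 2. Il17rd, which encodes the membrane inhibitor SEF, had 4.29, 8.54, 7.42 and 8.02 CPM in Control and 12.4, 8.73, 56.3 and 38.4 in Notch3IC. Its groups did not overlap, though the lines of Set 2 had nearly the same level. The log2 fold change was 2.04 (standard error 0.58, edgeR adjusted p = 0.102), and 1.75 (adjusted p = 0.0654) with the block.

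Spry1 and Spred2 passed the p threshold in opposite directions, below the fold limit. Spry1, a Sprouty gene, had 18.8, 10.7, 12.9 and 11.1 CPM in Control and 28.7, 20.3, 23.7 and 18.9 in Notch3IC (log2 fold change 0.78, edgeR adjusted p = 0.0933). On GRCm38, 24.4% of its exon bases overlap a gene on the opposite strand. Spred2, an inhibitor of RAS and RAF signaling, had 60.2, 49.1, 64.6 and 63.9 against 46.4, 35.5, 41.1 and 45.2 CPM (log2 fold change -0.50, edgeR adjusted p = 0.0681). The groups did not overlap for either gene, as for 7.08% of genes tested higher and 3.75% lower. Without the fold limit 5% of genes tested passed the p threshold higher and 1.69% lower. Spred1, the most abundant feedback and target gene by CPM, averaged 119 CPM over all libraries. Per length Dusp6 was highest, at 31.84 CPM/kb over all libraries against 17.55 for Spred1.

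Of the 17 adaptors and kinases all were tested and none was called. Plcg1, which encodes the phospholipase C gamma that binds the receptors, averaged 88.3 ± 8.54 CPM in Control and 116 ± 6.85 in Notch3IC (SD, n = 4; log2 fold change 0.39, edgeR adjusted p = 0.0619) without overlap. Such a separation was shown by 7.08% of genes tested in the higher direction. By CPM the most abundant gene of the list was Ptpn11, the SHP2 phosphatase, with 411 CPM over all libraries. Per length Mapk3 was highest, at 113.2 CPM/kb over all libraries against 73.28 for Ptpn11. Among 8 co-receptors and carriers (5 tested) none was called, and Flrt2, a membrane protein that binds FGF receptors, was the most abundant at 158 CPM.

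In the heparan sulfate genes (12 of 17 tested), Ext1 and Ext2, which together polymerize the chain, had log2 fold changes of 0.60 and 0.37 (edgeR adjusted p = 0.0671 and 0.0802), and neither overlapped between groups. Of all genes tested, 7.08% lay higher without overlap, and 5% passed the p threshold higher without the fold limit. Ext1 lay between 184 and 261 CPM in Control and between 273 and 387 in Notch3IC. Hs3st1, a 3-O-sulfotransferase, had 166, 367, 289 and 296 CPM in Control and 51.0, 293, 129 and 149 in Notch3IC. The gene was lower in each set, as were 19.3% of genes tested, with overlapping groups. Its log2 fold change was -0.85 (edgeR adjusted p = 0.384), and -1.04 (adjusted p = 0.0404) with the block.

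**Figure D3:**
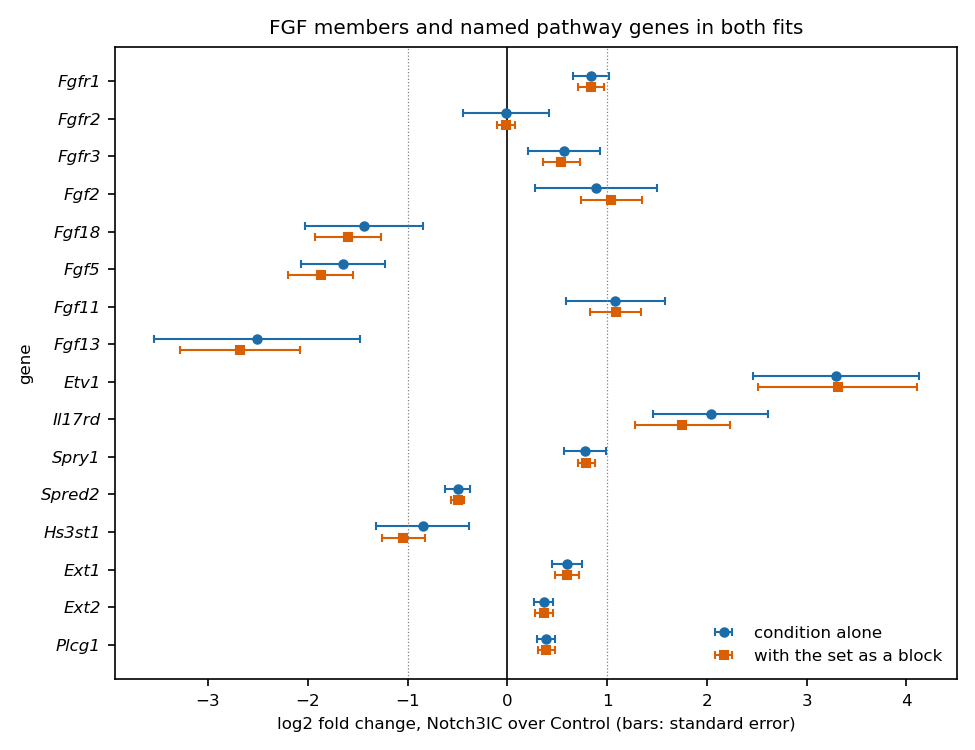
Log2 fold change of Notch3IC over Control with its standard error for the 5 tested members and 11 pathway genes, from the fit with condition alone (circles) and with the set as a block (squares), with dotted lines at the fold limit. Error bars of Fgfr2, Fgf18 and Fgf2 are shorter with the block, and Fgfr1 lies left of the upper limit in both fits.

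FGF homologous factors, which are relatives that stay inside the cell and do not act as receptor ligands, had few reads. Fgf11 had 9, 3, 15 and 9 counts in Control and 19, 5, 30 and 19 in Notch3IC (log2 fold change 1.08, edgeR adjusted p = 0.291, and 1.09 with adjusted p = 0.0466 under the block). Fgf13 had 3, 41, 23 and 44 against 1, 12, 2 and 1 counts (log2 fold change -2.51, edgeR adjusted p = 0.241, and -2.68 with adjusted p = 0.0428 under the block). Fgf11 was higher and Fgf13 lower in all 4 sets, as were 21.1% and 19.3% of genes tested, and the groups of each overlapped.

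In Set 2, the Notch3 log2 ratio was 3.51 against 6.79, 7.01 and 7.11 in Sets 1, 3 and 4. The ratios of Fgfr1, Fgfr3, Fgf18, Fgf5, Il17rd, Hs3st1, Ext1 and Upk3b were also smallest in size in Set 2. Those of Fgfr2, Fgf2, Fgf11, Fgf13, Etv1, Spry1 and Spred2 were smallest in another set. Of all genes tested, 53.1% had their smallest ratio in Set 2, a share the FGF genes are to be read against. Genes were compared in this way after their values were seen. Each set has 1 library per condition, and no test within a set was possible.

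**Figure D4:**
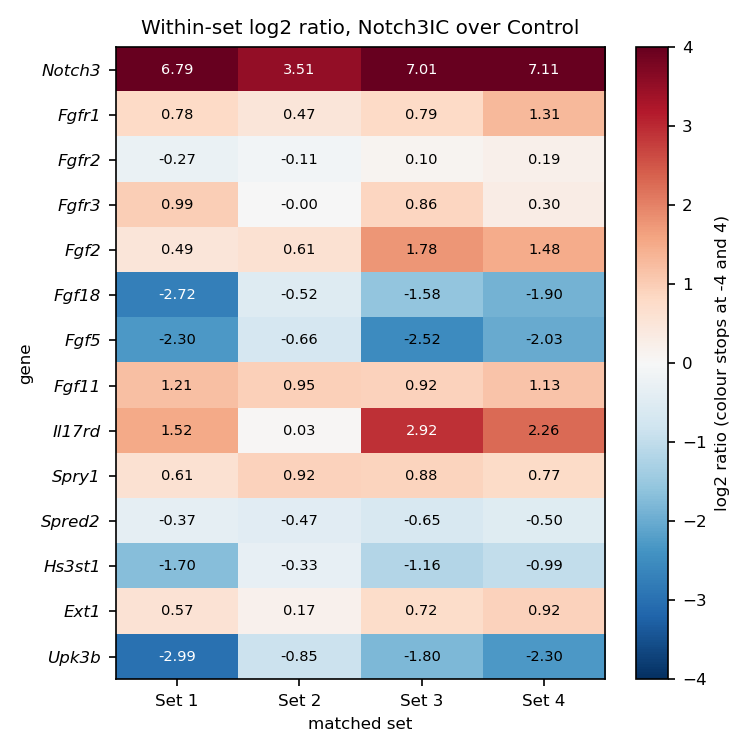
Log2 ratio of Notch3IC over Control CPM in each set for Notch3, 5 members, 7 pathway genes and the mesothelial marker Upk3b, with red for higher and blue for lower in Notch3IC. The Set 2 column is paler than the others for Notch3, Fgfr1, Fgf18, Fgf5 and Il17rd.

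Genes most like Fgfr1 across the 8 libraries, by Pearson correlation of log2 CPM, were Adra2a (r = 0.987), Jam3 (r = 0.986) and Svil (r = 0.986). For Fgf18 they were Upk3b (r = 0.996), Zcchc3 (r = 0.995) and Cgn (r = 0.993). The points share libraries and conditions, and the values are descriptions over 8 libraries.

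Cell type markers moved with the same libraries. Ovarian surface epithelial and mesothelial markers summed to 1585, 2460, 3599 and 3422 CPM in Control and 752, 1683, 1482 and 1231 in Notch3IC, with Upk3b at 935 and 284 CPM on average. Msln and Upk1b of this list fell (log2 fold change -2.60 and -2.19, edgeR adjusted p = 0.0625 and 0.0762), where 0.74% of genes tested were called lower with condition alone. With the block Krt19, Upk3b, Lrrn4 and Gata6 were called lower as well and 0 of the list higher, where 2.53% of genes tested were called lower. Lhx9 of this list was higher in the Notch3IC line of every set (3.04 and 3.91 CPM on average, edgeR adjusted p = 0.414), and Cdh2 in 3 of 4 sets (239 and 253 CPM, adjusted p = 0.886). Of all genes tested, 21.1% were higher in all 4 sets and 19.3% lower. Fgf18 and the summed markers were both lowest in the Notch3IC library of Set 1 and, within Control, in that of Set 1. Krt19, Wt1, Msln, Upk3b, Upk1b, Lrrn4, Gata4 and Gata6 were lowest in these libraries too. Cdh2 was instead highest in Set 1 of each group (314 CPM in Control and 339 in Notch3IC). Within Control, Krt7, Krt8, Krt18 and Lhx9 were lowest in another set. The 9 fibroblast and mural markers, with Lum at 0 to 4 counts in each library, summed to 8757, 5960, 4484 and 3297 CPM in Control and 17603, 7487, 9614 and 11225 in Notch3IC, led by Col1a1 at 3775 and 7590 CPM. Pdgfrb and Cspg4 rose (log2 fold change 5.99 and 4.20, edgeR adjusted p = 0.0169 for each), where 3.4% of genes tested were called higher with condition alone. With the block Col1a1, Col1a2 and Acta2 were called higher as well and 0 of the list lower, where 5.19% of genes tested were called higher. Dcn of the same list was lower in the Notch3IC line of every set, at 253 ± 147 CPM in Control and 183 ± 110 in Notch3IC (SD, n = 4; log2 fold change -0.47, edgeR adjusted p = 0.809, and -0.53 with adjusted p = 0.0275 under the block). Fgfr1 and this sum were both highest in Set 1 among the Control and among the Notch3IC libraries. Col1a1, which made up most of the sum, Col1a2 and Acta2 were highest there too. Other genes of the list differed. Pdgfra (96.5 CPM in Control and 130 in Notch3IC) and Dcn (43.3 and 24.6) were lowest in Set 1 of each group. Pdgfrb and Cspg4 were highest in Control Set 2 and Notch3IC Set 4. The fallopian tube markers, led by Cdh1 with Pax8 and Krt5 at no more than 3 counts, summed to 6.25 to 31.3 CPM in Control and 3.69 to 24.5 in Notch3IC. The 10 leukocyte markers summed to 2.42 to 5.47 against 3.55 to 5.18 CPM. Their leading gene Cd68 was lower in the Notch3IC line of every set (3.46 and 2.62 CPM on average, edgeR adjusted p = 0.610). Csf1r rose within that list (0.372 and 1.06 CPM on average, edgeR adjusted p = 0.0719), beside the same 3.4% of genes tested called higher. The 7 endothelial markers, led by Pecam1, summed to 0.578 to 1.64 against 1.30 to 2.21 CPM. The part of any of these markers in the levels of Fgfr1 or Fgf18 was not tested.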

How the data were processed

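Polyadenylated RNA was sequenced by the study as single-end reads. For each library the authors deposited a table of raw counts per gene symbol, in whole numbers and not normalized, and the submitters' processing notes name TopHat, Cufflinks, DESeq and the mm9 build. The strandedness of the libraries and the annotation are not given in the sources used here. Gene lengths, overlaps and chromosomes came from GRCm38 (GENCODE M21), as exons of protein-coding transcripts, a length chosen after the data were seen, and no coordinates were converted. Hras and Adgre1 were matched through RefSeq synonyms.

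Counts were analysed in R 4.3.3 with edgeR 4.0.16 (filterByExpr by condition, TMM, robust quasi-likelihood F test, Benjamini-Hochberg over 12430 genes). The standard error is the log2 fold change divided by the square root of F. CPM is the count scaled to the TMM-normalized library size. Ratios within a set add 0.5 counts. Figures and tables used Python 3.11.15 with pandas 2.3.3, NumPy 2.4.6 and Matplotlib 3.10.9. The tests were tried on simulated data.

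Sets pair the libraries by the study's description of matched infections. Same-set deviations from the group means correlated across genes at 0.80, 0.40, 0.57 and 0.41, against -0.50 to 0.37 for crossed sets. Deviations in a group sum to 0 for each gene, so positive same-set values tend to lower the crossed ones by construction. The contrast is therefore a description and no test of the pairing. The highest crossed value, Control 3 with Notch3IC 4, was close to that of Set 2. The biological coefficient of variation was 26.3% with condition alone and 14.1% with the set as a block. The study's methods name no set term, so condition alone was the design. The lines are separate infections of 1 parent line, and p-values measure the spread between these lines.

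The members and lists were chosen with earlier results of these data known. Genes named are the members, Notch3, Hey1, Heyl and Nrarp, pathway genes called in either fit, the most abundant gene of each pathway list by CPM and the 3 genes most like the leading receptor and ligand. Plcg1, Spry1, Spred2, Mapk3, Dusp6, Ext1, Ext2, Nudt6, Flrt3 and the marker genes were named after their values were seen, and the motif letters were also chosen then. 1 marker of the leukocyte list is not reported by itself here. Alternatives were DESeq2 1.42.0, RLE, upper-quartile and library-total scaling, no filter, at least 10 counts in every library, the block, an adjusted p under 0.05, no fold limit, a pseudocount of 2, all-exon lengths and leaving out each library or set. The block with a set left out and the all-exon lengths were added after the data were seen.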

Additional observations from a re-analysis of the deposited data

Results flagged for a closer look

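A library far from the other 3 of its group was found in 6 of 76 groups searched, where chance gives about 1 in 20, or 3.8. The value given is the gap of that library to its nearest neighbour divided by the range of the group; each exceeds the 95% critical value of Dixon's test for 4 libraries. In Notch3IC Set 2, Fgf5 stood at 26.1 CPM against 6.38 to 9.38 in the others (0.848), and Fgf13 at 0.754 CPM against 0.0362 to 0.0788 (0.941). In Control Set 3, Flrt3 stood at 10.6 CPM against 6.73 to 6.80 (0.980), and Notch3 at 3.04 CPM against 1.66 to 1.80 (0.896). In Control Set 1, Adra2a stood apart (0.879). In Notch3IC Set 4, the summed leukocyte markers were 5.18 CPM against 3.55 to 3.74 (0.879).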

How the results depend on the processing

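The threshold, the tool and the set term moved the counts of calls. With the set as a replicate block, 645 genes were called higher and 315 lower, 1 member in each direction (Fgf2 and Fgf18) and 3 pathway genes in each direction. DESeq2 called 708 and 192 genes, 1 member lower and 2 pathway genes higher. At an adjusted p under 0.05, 48 genes were called lower and 0 pathway genes in either direction. Without the fold limit 210 genes were called lower, with 1 member higher, and 5 pathway genes higher and 2 lower. Pathway genes called higher were 2 without the expression filter and 0 with at least 10 counts in every library. Leaving out libraries or sets with condition alone gave 0 to 702 genes called higher and 0 to 305 lower, 0 to 1 members in each direction, and 0 to 4 pathway genes higher and 0 to 3 lower. The low ends came without Set 3 (1 higher, 0 lower) and without Set 4 (0 and 0), where edgeR gave 1101 and 1011 genes with an unadjusted p under 0.05. The cause was not tested. With the block, leaving out Set 1 gave 46 genes higher and 23 lower, leaving out Set 3 gave 59 and 22, and leaving out Set 4 gave 129 and 30, with 0 members and 0 pathway genes in each. Without Set 2 the block gave 904 and 426 genes, 1 member in each direction, and 5 pathway genes higher and 2 lower. The sign of Fgfr2, with no call, turned in some of these fits (-0.34 to 0.39 with condition alone, and 0.058 without Set 1 and 0.018 without Set 2 with the block). The signs of Flrt2 (-0.025 to 0.32) and Ptpn11 (-0.068 to 0.19) turned without Notch3IC replicate 1. With all-exon lengths the Control level was 6.40 CPM/kb for Fgfr1, 6.26 for Fgfr2 and 1.39 for Fgfr3, and Fgf18 at 10.6 became the highest member. The block changed no other member or pathway call. The 5 members with few counts were tested only without the expression filter or with DESeq2, which gave no adjusted p for Fgf10 and Fgfr4, and none was called there.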
